A study of Homo sapiens with 4 samples.

Results

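Regions of SRSF1-recovered RNA lay at the same places in both genotypes, over coding exons of MYC and inside an intron of its neighbour PVT1. The peak lists give no strand, so regions were assigned to genes by position only. Members were the regions, with all their summits, of the authors' 2 peak lists that overlapped the annotated gene of MYC or PVT1 by at least 1 bp. In each list 3 regions met this rule, of 229 regions for wild type cells and 194 for cells overexpressing ZCCHC7 (ZCCHC7-OE). They held 6 of 285 summits in wild type and 6 of 238 in ZCCHC7-OE, 4 at MYC and 2 at PVT1 in either list. The members were chosen by their pileup over input, since that puts a region in a list, and so their enrichment over input is given as a description and not as a test.

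The cells were RKO, a line from a human colorectal cancer. Wild type cells were set against cells overexpressing ZCCHC7, a zinc-knuckle protein of the TRAMP complex that prepares nuclear RNA for the exosome. Each genotype had 1 input library and 1 library of RNA recovered with an antibody to SRSF1 (IP), 4 libraries in all, and the labels name no vector, clone or control construct for either genotype. The protocol in the labels also describes incubation with an antibody to m6A, a methyl mark on RNA, and does not say for which libraries. With 1 library per group no difference between genotypes has a replicate check, and all intervals are 95% intervals that cover counting error only. They take every tag as an independent count, although duplicates were kept, so they can be too narrow.

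MYC encodes a short-lived transcription factor that pairs with MAX and drives growth, and it is a well known target of Wnt signalling in the colon. Its first exon is mostly untranslated, the second exon encodes the activating part of the protein and the last exon the part that binds DNA and MAX. PVT1 is a long non-coding RNA gene that follows MYC on the same strand, hosts several microRNAs and is often gained together with MYC in tumours. SRSF1 is an SR protein that binds purine-rich sequences in exons and acts in splicing and later steps of mRNA life.

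In the annotation deposited with the series, MYC (ENSG00000136997) lies on chromosome 8, 127735434 to 127741434, with 9 transcripts, and PVT1 (ENSG00000249859) at 127794533 to 128101253, with 25 transcripts. Both are on the plus strand and 53098 bp apart. Positions correspond to GRCh38. Of the 306721 bp of PVT1, 1.79% are exonic in any transcript, against 50.01% of the 6001 bp of MYC.

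At MYC both regions lay on coding sequence. The first ran from 127738611 to 127739019 in wild type and from 127738596 to 127739038 in ZCCHC7-OE. It covered the downstream part of exon 2, beginning 348 bp (wild type) and 333 bp (ZCCHC7-OE) after the start codon in that exon. In wild type its last base was the last base of exon 2, and in ZCCHC7-OE it passed that base by 19 bp. The second region ran from 127740368 to 127741016 in wild type and from 127740341 to 127741053 in ZCCHC7-OE. It covered all 563 coding bases of exon 3, stop codon included. It began 28 and 55 bp before the exon and ended 58 and 95 bp after the stop codon, in the 3′ UTR.

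**Figure D1:**
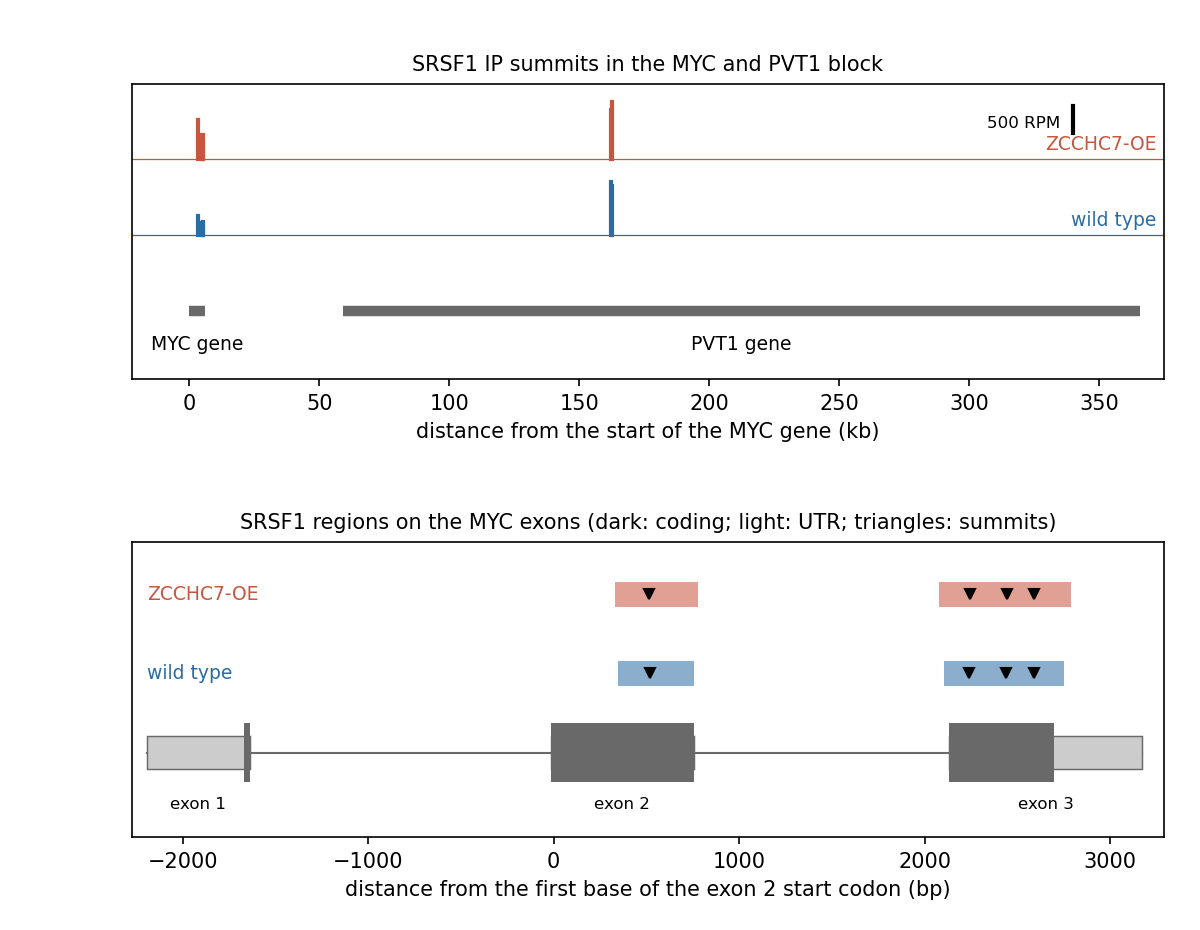
Top: RPM, IP tags per 1000000 IP tags (height of the vertical lines, with a scale bar of 500) at each summit against the distance from the start of the MYC gene in kb, wild type in blue and ZCCHC7-OE in red, above the 2 genes in grey. Bottom: the MYC regions (coloured bars) and summits (triangles) over the exons of the longest MYC transcript, against the distance in bp from the exon 2 start codon; the regions sit on exons 2 and 3 in both genotypes and none lies on exon 1.

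Taken over the MYC transcript with the longest coding sequence, the regions held 972 of 1365 coding bases in wild type (71.2%) and 987 in ZCCHC7-OE (72.3%). Exon 1, of 555 bp with 30 coding bases at its end, held no region base in either list. The 3′ UTR of 476 bp held 58 region bases in wild type and 95 in ZCCHC7-OE, those next to the stop codon. All of these overhangs were shorter than the 147 bp (wild type) or 154 bp (ZCCHC7-OE) to which the caller extended each tag. The tags themselves were 138 bp and 132 bp long, so extension added little to them. In the 3′ UTR, tags that begin in coding sequence can span the overhangs, but largely by their own length. How the overhangs into the intron arose was not tested. Whether RNA of the overhangs was itself recovered was not tested. Between the regions, 1348 bp of the intron separating exons 2 and 3 were free in wild type, against 1302 bp in ZCCHC7-OE. Among the 48 protein-coding genes with a region on their coding sequence, MYC ranked 12 in wild type and 11 in ZCCHC7-OE by the share of coding bases under a region. The median share over those genes was 9.17% and 10.4%. Outside the regions enrichment was not detectable at this depth, which does not mean that no RNA was bound there.

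The PVT1 region lay in an intron and touched no exon of any of its transcripts. It ran from 127897403 to 127898212 in wild type (810 bp) and from 127897435 to 127898220 in ZCCHC7-OE (786 bp). The intron is 41466 bp long, and the region began 6404 bp after its upstream exon in wild type and 6436 bp after it in ZCCHC7-OE. Its other end lay 34252 and 34244 bp before the next annotated PVT1 exon. None of the microRNA genes annotated within PVT1 was near it: MIR1205, the nearest, lay 62413 bp downstream and MIR1204 101375 bp upstream. No other annotated gene overlapped the region, and none besides MYC overlapped those of MYC. Without strand or exon bases, whether the RNA recovered in the intron came from PVT1 transcripts was not tested.

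The summits of both genotypes fell on the same positions to within a few bases. The caller placed 1 summit in the exon 2 region, 3 in the exon 3 region and 2 in the PVT1 region in both lists, and the 6 pairs lay 1 to 8 bp apart. Over all 169 pairs of summits within 50 bp of each other, 53.8% lay at most 8 bp apart. In exon 3 the summits lay 104, 307 and 457 bp after the start of the exon in wild type and 112, 310 and 455 bp after it in ZCCHC7-OE. The summits of the PVT1 region were 326 and 325 bp apart. All 3 member regions of either list overlapped a member region of the other, where 62.0% of all wild type regions and 73.2% of all ZCCHC7-OE regions overlapped a region of the other list.

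The level at each summit is the number of IP tags over it, worked out from the deposited pileup and divided by the library's total (RPM, tags per 1000000 IP tags). The wild type IP library had 1070075 tags and the ZCCHC7-OE IP library 690876. At the MYC exon 2 summit there were 378 tags in wild type, or 353 RPM (319 to 391), and 502 in ZCCHC7-OE, or 727 RPM (664 to 793). The ZCCHC7-OE level was 2.06 times that of wild type (1.80 to 2.36), and the intervals of the libraries did not overlap.

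The exon 3 summits of MYC were lower than that of exon 2 in both libraries and had similar ratios between them. The first held 251 tags in wild type (235 RPM) and 306 in ZCCHC7-OE (443 RPM), a ratio of 1.89 (1.59 to 2.24). The second held 193 (180 RPM) and 253 (366 RPM), a ratio of 2.03 (1.68 to 2.46). The last held 261 (244 RPM) and 307 (444 RPM), a ratio of 1.82 (1.54 to 2.16). All 4 MYC summits were thus higher in RPM in the ZCCHC7-OE library, with intervals of the ratio above 1. No difference in ratio between exon 2 and exon 3 was detectable at this depth, though the intervals reach 1.40: the ratio at exon 2 divided by that at the first exon 3 summit was 1.09 (0.874 to 1.36), and 1.01 (0.799 to 1.28) and 1.13 (0.908 to 1.40) for the others. Within wild type, exon 2 held 1.51 (1.28 to 1.77), 1.96 (1.64 to 2.34) and 1.45 (1.23 to 1.70) times the tags of the exon 3 summits, and within ZCCHC7-OE 1.64 (1.42 to 1.90), 1.98 (1.70 to 2.32) and 1.64 (1.42 to 1.89) times. Neighbouring exon 3 summits lay 145 to 203 bp apart, so in ZCCHC7-OE the second and the last can share tags.

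**Figure D2:**
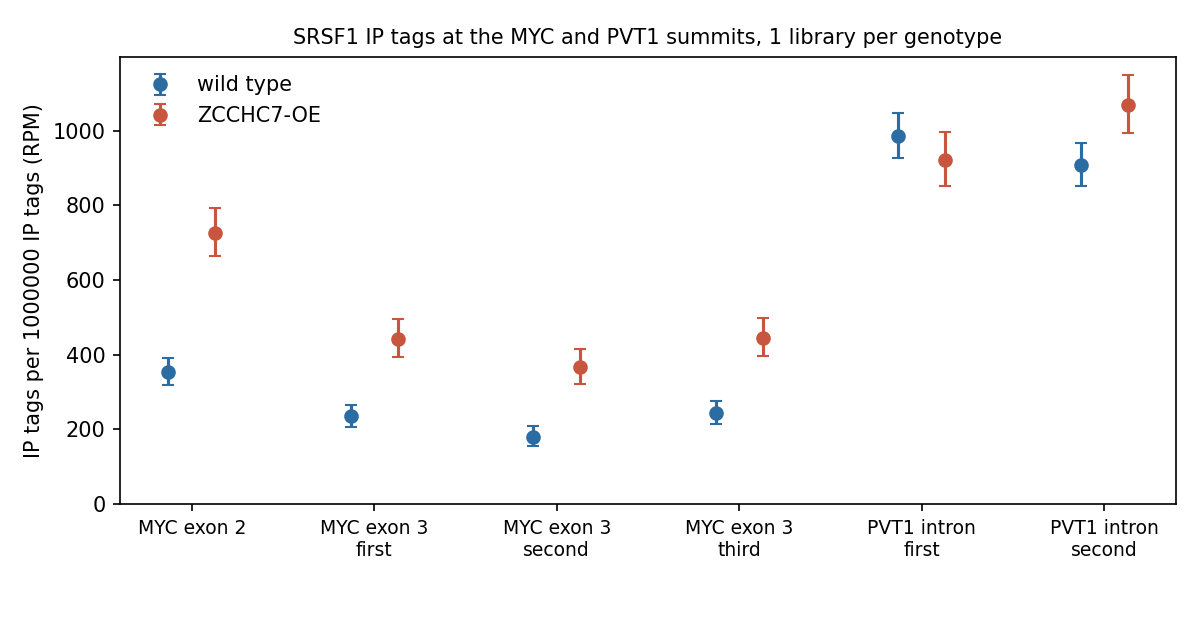
RPM, IP tags per 1000000 IP tags (y axis) at the 4 MYC and 2 PVT1 summits, wild type in blue and ZCCHC7-OE in red. Points are single libraries and bars the exact Poisson 95% intervals of the tag count; the MYC points lie apart between genotypes, while those of the first PVT1 summit overlap.

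The PVT1 region stood above the MYC regions in RPM in both libraries, and its RPM, with no allowance for input, differed less between them. Its first summit held 1055 tags in wild type, 986 RPM (927 to 1047), and 636 in ZCCHC7-OE, 921 RPM (850 to 995). The ratio there was 0.934 (0.845 to 1.03), which includes no difference. The second summit held 970 tags in wild type, 906 RPM (850 to 965), and 738 in ZCCHC7-OE, 1068 RPM (993 to 1148), a ratio of 1.18 (1.07 to 1.30). In ZCCHC7-OE the first PVT1 summit held 0.862 times the tags of the second (0.774 to 0.960). In wild type it held 1.09 times (0.996 to 1.19), an interval that includes equal levels. The ratio between genotypes at the second summit was 1.26 times that at the first (1.10 to 1.45).

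In IP tags alone, the ratio between genotypes was higher at MYC for each pair of a MYC and a PVT1 summit, with an interval above 1. These intervals take every tag as independent, and duplicates were kept, so they can be too narrow. After division by the change in input, the order no longer held for every pair: the log2 ratio was -0.63 at the first exon 3 summit and -0.55 at the second PVT1 summit. The ZCCHC7-OE over wild type ratio at MYC exon 2 was 2.20 times that at the first PVT1 summit (1.86 to 2.61) and 1.75 times that at the second (1.48 to 2.06). For the exon 3 summits the corresponding factors ran from 1.55 (1.27 to 1.88) to 2.17 (1.75 to 2.70). In wild type the first PVT1 summit held 2.79 times the tags of MYC exon 2 (2.48 to 3.15), and in ZCCHC7-OE 1.27 times (1.13 to 1.43). These factors compare IP tags within and between 2 IP libraries, and they do not depend on the library totals. Both regions were in view when the genes were chosen, and no p-value is given.

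The 140 loci with a region in both lists mostly had more RPM in ZCCHC7-OE, with a median ratio of 1.30 (0.38 on the log2 scale). Loci called in a single list are left out, and the IP libraries differ in depth. The effect of this filter on the median was not tested. For this comparison the summit of most tags was taken at each locus in each library. Both MYC loci had an interval above 1, as did 40.0% of the 140, and an interval above the median ratio, as did 23.6%. By its ratio the exon 2 locus ranked 24 and the exon 3 locus 37 of 140. The PVT1 locus ranked 101, with a log2 ratio of 0.12 (-0.02 to 0.25), so its interval held a ratio of 1 and lay below the median ratio, as at 12.9% of loci. At PVT1 this set the first summit in wild type against the second in ZCCHC7-OE, which are different positions.

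**Figure D3:**
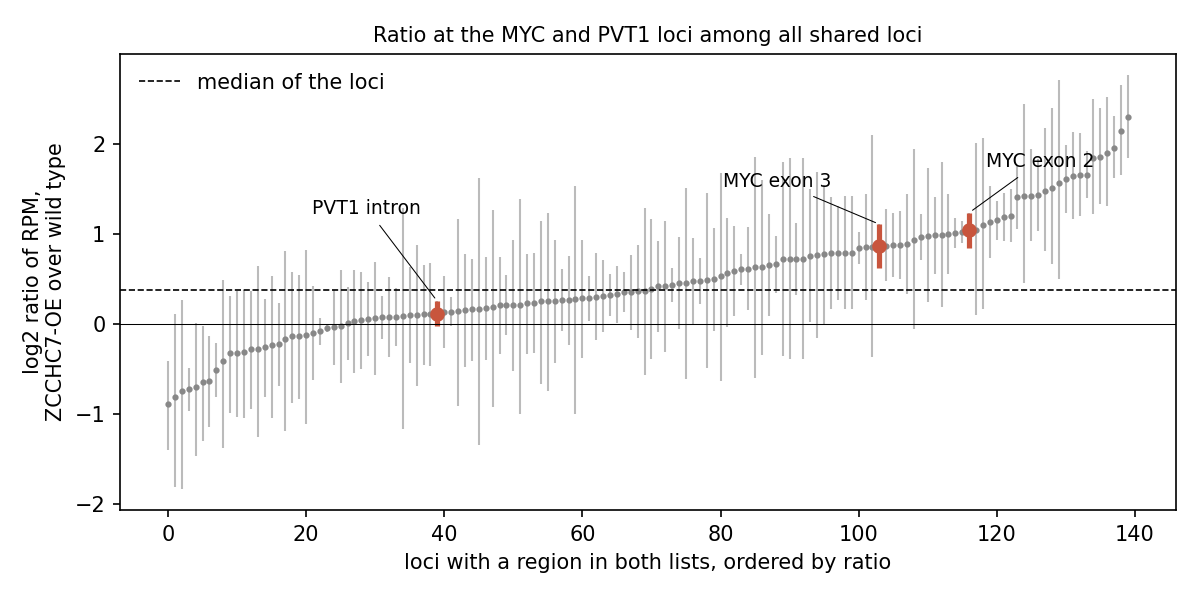
Log2 ratio of IP tags per 1000000 IP tags (RPM), ZCCHC7-OE over wild type (y axis), for the 140 loci with a region in both lists, ordered by ratio (x axis). Grey points and lines are loci with exact 95% intervals, red marks the 3 loci of MYC and PVT1 and the dashed line the median of 0.38; both MYC loci lie above that line and PVT1 below it.

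The input libraries were not empty at either gene. The caller's local background, solved for from its fold and pileup, came to whole input tags at every summit, either directly over the summit or within a 1 kb window scaled to the extension length. Whichever is largest is used, so the value is the highest local estimate. At MYC exon 2 it rested on 3 tags over the summit in wild type and 13 within 1 kb in ZCCHC7-OE. At the exon 3 summits it rested on 1 tag over the summit, 5 within 1 kb and 2 over the summit in wild type, and on 2 over the summit, 6 within 1 kb and 3 over the summit in ZCCHC7-OE. At PVT1 it rested on 1 over the first summit and 8 within 1 kb of the second in wild type, and on 4 and 9 in ZCCHC7-OE. Set against the genome-wide floor, the background was 7.36 to 30.1 times as high at the wild type summits and 12.9 to 55.8 times at those of ZCCHC7-OE. Only 42.5% of all wild type summits and 45.8% of all ZCCHC7-OE summits had a background above that floor.

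Per 1000000 input tags, the background at MYC exon 2 was 21.1 for the wild type library and 20.5 for ZCCHC7-OE. At the exon 3 summits it went from 7.02 to 20.5, from 5.16 to 9.47 and from 14.0 to 30.8. At PVT1 it went from 7.02 to 41.0 at the first summit and from 8.26 to 14.2 at the second. The input libraries held 142404 and 97545 tags, so that 1 tag has a Poisson interval of 0.0253 to 5.57 tags and 4 tags one of 1.09 to 10.2. Divided by the change in input, the log2 ratio was 1.08 for MYC exon 2 and -0.63, 0.15 and -0.27 for the exon 3 summits. For those of PVT1 it was -2.64 and -0.55. These divided ratios have no interval and rest on few input tags. At MYC exon 2 they also set unlike windows against each other, 3 tags over the summit in wild type and 13 within 1 kb in ZCCHC7-OE. A difference between exons 2 and 3 cannot be read from them. The higher RPM at MYC is therefore not shown to be a rise in enrichment, and in these bulk libraries more MYC RNA in the cell and more of it bound cannot be told apart.

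**Figure D4:**
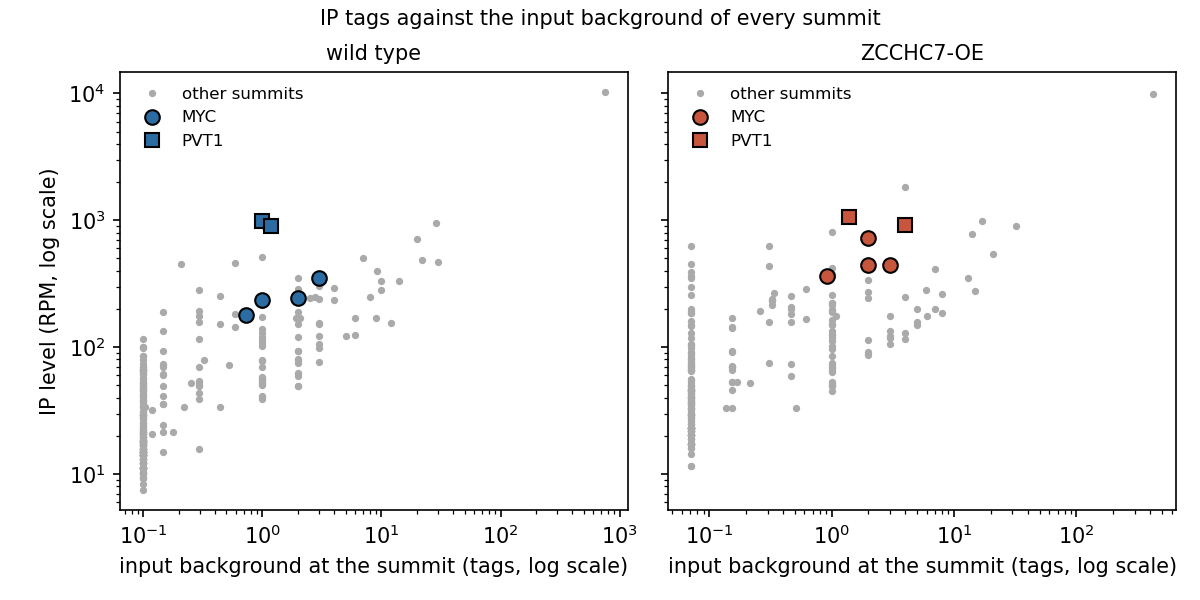
RPM, IP tags per 1000000 IP tags (y axis, log scale) against the caller's input background at the summit (x axis, tags at the depth of each input library, log scale), for every summit of the wild type (left) and ZCCHC7-OE list (right). Circles are MYC, squares PVT1 and grey points other summits; PVT1 lies among the highest IP levels, and both genes lie to the right of the column of summits at the genome-wide floor.

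Enrichment over input was high at both genes but poorly determined. In wild type the IP level over the input level was 16.8 (5.69 to 81.7) at MYC exon 2 and from 17.4 (4.76 to 144) to 34.9 (14.7 to 109) at the exon 3 summits. In ZCCHC7-OE it was 35.4 (20.5 to 67.0) at exon 2 and from 14.4 (4.90 to 70.4) to 38.7 (17.5 to 106) in exon 3. At the second PVT1 summit wild type had 110 (55.5 to 255) and ZCCHC7-OE 75.2 (39.4 to 165). At the first it was 140 (25.1 to 5551) and 22.4 (8.72 to 82.6). Within each gene the intervals of the genotypes overlapped at every summit.

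The authors' own fold, the pileup plus 1 over the background plus 1, ordered the regions as follows within each list. By its highest fold the PVT1 region ranked 1 of 229 in wild type and 3 of 194 in ZCCHC7-OE, and by tags 2 and 3. The MYC exon 2 region ranked 20 and 12 by fold, with 12.8 for wild type and 23.9 for ZCCHC7-OE, and 12 and 9 by tags. The exon 3 region ranked 12 and 16 by fold and 21 and 14 by tags, with a highest fold of 17.2 and 19.1. At the first PVT1 summit the authors' fold was 70.7 in wild type, with a pileup of 140.4 and a background of 1 input tag, and 18.2 in ZCCHC7-OE, with a pileup of 89.8 and a background of 4. The pileup is scaled to each input library's depth and both terms differ between the lists, so the folds are given side by side and not compared. The authors' -log10 q-values were at least 24.5 at all 6 wild type summits and 28.9 at all 6 ZCCHC7-OE summits. A q-value of 0.05 was passed by 44.5% of all wild type regions and 52.1% of all ZCCHC7-OE regions.

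The member regions were long for their lists. Against a median of 210.0 bp over all wild type regions, MYC exon 2 had 409 bp, MYC exon 3 649 bp and PVT1 810 bp. In ZCCHC7-OE the median was 227 bp and the members had 443, 713 and 786 bp. Among the 51 wild type regions centred in introns, PVT1 ranked first by tags, ahead of LINC01812 with 960, and among the 48 of ZCCHC7-OE it came after LINC01812, which held 1256. Among 73 wild type and 63 ZCCHC7-OE regions centred in coding sequence, MYC exon 2 ranked 3 and 2 by tags and MYC exon 3 ranked 7 and 4.

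Other genes with similar levels in the IP libraries were found by their distance to each gene's strongest locus, in log2 RPM over the 2 IP libraries. Nearest to MYC exon 2 were the 5′ UTR of the translation elongation factor gene EEF1A1 (distance 0.39) and a coding exon of UBE2Q1 (0.39), which codes for a ubiquitin-conjugating enzyme. Next came an intronic site in the overlapping genes LRRC75A and LRRC75A-AS1 (0.45). An intergenic site on chromosome 4 (0.54) and the minor spliceosomal RNA gene RNU11 (0.64) followed. Nearest to PVT1 were the U3 small nucleolar RNA gene SNORD3A (0.27), a coding exon of the nucleolin gene NCL (0.67) and an intron of LINC01812 (0.78), then RNU11 (1.02) and the chromosome 4 site (1.05). SNORD3A held 944 RPM in wild type and 893 in ZCCHC7-OE, a log2 ratio of -0.08 where the PVT1 locus had 0.12. EEF1A1 held 451 and 813. With 2 libraries this likeness is a description of levels.

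Of the 63 annotated genes in 5 lists (partners and antagonists of MYC such as MAX and MNT, factors of MYC protein turnover, proteins that bind MYC mRNA, genes activated by MYC, and the Wnt pathway), 1 had a region in wild type and the same 1 in ZCCHC7-OE. It was NCL, whose product acts in ribosome production, with 755 and 537 tags, or 706 and 777 RPM. Over all 58735 annotated genes, 0.232% overlapped a region in wild type and 0.216% in ZCCHC7-OE. By list, 0 of 13 network genes, 0 of 7 turnover genes, 0 of 10 mRNA-binding protein genes, 1 of 19 target genes and 0 of 14 Wnt genes held a region in either genotype. SRSF1, itself a target of MYC, was among those without one. Of 14 other long non-coding RNAs, LINC01812 held a region in both lists. That list was chosen with earlier results of these data known, so this count is not a finding about long non-coding RNAs. Of the defining markers, 0 of 8 for colon epithelium and 0 of 5 for fibroblasts held a region, and HBB was the 1 of 4 for blood, in both lists. Since a region needs enrichment over input, these counts say nothing of expression.

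None of the 22 annotated neighbours of MYC and PVT1 that were looked up had a region, the host-gene microRNAs and the non-coding RNA genes CCAT1, CASC11 and PCAT1 included. At the shares over all genes, 0.232% and 0.216%, lists of this size would be near 0 as well, so these counts are no result about the listed genes or the neighbours. Chromosome 8 held 9 wild type regions and 7 ZCCHC7-OE regions, so the members were 3 of 9 and 3 of 7. The nearest region before MYC in both lists was in ATAD2, which codes for a bromodomain ATPase, 4.37 Mb away. It held 138 tags in wild type (129 RPM) and 48 in ZCCHC7-OE (69.5 RPM). The nearest after PVT1 was in PLEC, 15.8 Mb away, in wild type and in RECQL4, 16.4 Mb away, in ZCCHC7-OE.

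The authors' splicing tables held 1 event at PVT1 and none at MYC. It was a skipped exon at 127890589 to 127890998, of 410 bp, between exons at 127794557 to 127794734 and 127939508 to 127940454. Its downstream edge is the start of the intron that carries the SRSF1 region. The first side of the comparison, which its name makes likely to be ZCCHC7-OE, had 1 inclusion and 2 skipping junction counts, and the second side 6 and 0. In the authors' deposited table the inclusion level, which corrects for form length, was 0.118 on the first side and 1 on the second, a difference of -0.882. As a share of raw counts, inclusion was 33.3% (exact binomial interval 0.840 to 90.6) on the first side and 100% (54.1 to 100) on the second, and these intervals overlap. The authors' deposited table gives p = 1 and a false discovery rate of 1, as for all 46 events. At 9 junction counts the event was deeper than the median event, with 4. All its counts came from the library in the second position on either side, and which library that is was not stated. Depth thus leaves the use of this exon in the genotypes undetermined. SNHG12, another long non-coding RNA gene, was the 1 further gene of the lists with an event, a retained intron with 2 inclusion counts on the first side and 2 skipping counts on the second.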

How the data were processed

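Sources were the authors' 2 peak lists, splicing tables and gene annotation. Per the file headers, the authors called peaks with MACS 2.1.0.20150420 at a p-value of 0.005, IP against input within each genotype, with tags extended to 147 bp (wild type) or 154 bp (ZCCHC7-OE), all duplicates kept and the larger library scaled to the smaller. The lists were tied to genotypes through the library initials in the headers. FastQC 0.11.5 and HOMER are named in the submitters' processing notes, and the aligner is not given in the sources used here. The deposited pileup is a signal at input depth, the deposited fold a ratio with 1 added to both terms, and the deposited significance is -log10 of the p-value and q-value. The inclusion level difference is the authors' deposited score from -1 to 1.

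Pileup times IP tags over input tags gave whole tags within 0.1 at 285 of 285 and 238 of 238 summits. The recovered background matched whole input tags or the genome-wide floor (0.0998 and 0.0716 tags) at all of them. Intervals are exact: Poisson for tags, conditional binomial for ratios, conditional odds ratio for ratios of ratios, and Clopper-Pearson for shares. The recovery of whole tags and the ratio interval were tested on simulated independent counts, which cannot show the effect of kept duplicates. All intervals cover counting error only and take every tag as independent. Duplicates were kept and tags carry no molecular identifiers, so copies of 1 molecule cannot be told apart and the intervals can be too narrow. Summits were paired as mutual nearest within 50 bp. The feature of a region was taken at its midpoint over all transcripts. Of 18676 protein-coding genes with a RefSeq symbol, 18668 overlapped their GRCh38.p14 position. The lists give no strand. Python 3.11.15, NumPy 2.4.6, SciPy 1.17.1, pandas 2.3.3 and Matplotlib 3.10.9 were used.

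Named genes were MYC, PVT1 and overlapping genes, the nearest regions on either side, the 5 loci of most similar level for each gene, and members of fixed lists with a region or event; CCAT1, CASC11, PCAT1, MAX, MNT and SRSF1 illustrate lists. Members and lists were chosen with earlier results of these data known. No sequence is shown.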

Additional observations from a re-analysis of the deposited data

How the results depend on the processing

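The 3 member regions of each list, their placement (2 in coding sequence, 1 in an intron), their sharing between lists and the 1 splicing event were the same under each alternative run: a summit within the gene, a q-value of 0.05, a fold at or above the list median, a -log10 p of at least 10, the summit or over 50% of bases as the feature, 1 transcript, 50% overlap, and events by position. Of 49 alternative values 37 were the same, 8 moved and 4 reversed. Every value that moved or reversed was a log2 ratio between genotypes. The members lay far above the p-value and q-value cut-offs, so their counts could hardly change under these. Relative to the median shift of 0.38, the log2 ratios were 0.66 at MYC exon 2, 0.54, 0.64 and 0.48 at the exon 3 summits and -0.48 at the first PVT1 summit, while the second PVT1 summit turned to -0.14; a constant was subtracted by construction. With the summit of most tags in each list, the first PVT1 summit gave 0.12, since different summits were compared. Chosen after seeing the data were a scaling by extension length, which changed no side, and division by the change in input, which gave -0.63, 0.15 and -0.27 at the exon 3 summits and -2.64 and -0.55 at those of PVT1; the input ratios rest on 1 to 13 tags. The authors' folds are given side by side and no comparison is drawn from them. No paired analysis was possible because each group has 1 library and none could be left out.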
